A study of Mus musculus with 4 samples.

Results

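The genes described here are 9 well-known markers of the Purkinje cell, Pcp2, Calb1, Car8, Itpr1, Plcb4, Atp2b2, Auts2, Rora and Pvalb. They were looked up by gene name in a list of RREB1 binding sites, and 3 of the 9 (Plcb4, Atp2b2 and Auts2) had a row among its 1933. RREB1 is a zinc finger transcription factor, and its binding was measured by ChIP-seq in the cerebellum of Tg(PCP2-Rreb1/3V5)20/J mice, 3 weeks old. The transgene is the neuronal Rreb1 transcript V7 with 3 V5 tags, driven by the Purkinje cell promoter of Pcp2. Chromatin of whole cerebellum was precipitated with a V5 antibody in 2 RREB1-3V5 ChIP libraries, replicate 1 from a female and replicate 2 from a male, each with an Input library made without antibody (2 Input libraries). All 4 libraries carry the transgene, so there was no library from mice without it.

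The authors deposited 1 list of peaks merged over the libraries, with a position on mm10, the kind of region and the nearest gene of each peak. It holds no read count, score, width or value for a single library. Neither the depth nor the agreement of both animals can be read from it. Nothing could be tested over samples, and confidence intervals are for counting error alone. Each gene has at most 1 row, and 1110 numbers within the run of peak numbers have no row. The paper reports more peaks than the list has rows, so called peaks are missing from the list. The paper assigned its peaks to about as many genes as the list has rows. That is what a list cut to 1 row per gene would hold, though such a cut is not stated. Shares of listed peaks, distances to them and the absence of a peak therefore hold for the listed rows alone. The list holds no expression values either, so that these genes mark Purkinje cells was taken as background and not checked here.

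The Purkinje cell sends the only output of the cerebellar cortex and is known for its strong calcium signals. Glutamate from parallel fibres activates metabotropic receptors, a G protein then activates phospholipase C beta, and the IP3 it makes opens the IP3 receptor in the endoplasmic reticulum. Itpr1 encodes that receptor, Plcb4 encodes a phospholipase C beta isoform, and Car8 encodes a carbonic anhydrase-like protein that binds the receptor and lowers its affinity for IP3. The calcium is buffered by calbindin (Calb1) and parvalbumin (Pvalb) and pumped out of the cell by PMCA2 (Atp2b2). Rora encodes the nuclear receptor that is mutated in staggerer mice and is needed for Purkinje cells to mature. Auts2 encodes a nuclear regulator of transcription, and Pcp2 a small modulator of G protein signalling. Parvalbumin is also made by interneurons of the molecular layer.

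Of the listed peaks, 6 were tied to 4 of the genes, either by the gene name in the row or by lying inside the gene whatever gene the row names. Their sequences are shown so that the windows with and without the searched site can be compared. Each runs 100 bp to either side of the listed position on the plus strand of mm10. Capitals mark the E-box of NeuroD factors, bHLH proteins of neurons, searched as CAGATGG on both strands. The first is Plcb4, chr2:135836477-135836677, in intron 3. The second is Atp2b2, chr6:113860668-113860868, also in intron 3. The next 3 belong to Auts2, in intron 4 (chr5:131873224-131873424), in intron 5 (chr5:131586402-131586602) and upstream of the gene (chr5:133010611-133010811). The last is Rora, chr9:68820527-68820727, in intron 1.
Plcb4 intron 3: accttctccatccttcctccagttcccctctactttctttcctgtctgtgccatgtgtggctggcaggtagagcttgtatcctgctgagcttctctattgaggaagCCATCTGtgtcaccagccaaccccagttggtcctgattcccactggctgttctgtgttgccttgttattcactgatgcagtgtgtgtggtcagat
Atp2b2 intron 3: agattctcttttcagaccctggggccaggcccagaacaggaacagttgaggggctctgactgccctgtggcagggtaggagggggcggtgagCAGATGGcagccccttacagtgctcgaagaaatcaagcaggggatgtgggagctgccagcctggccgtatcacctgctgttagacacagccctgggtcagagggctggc
Auts2 intron 4: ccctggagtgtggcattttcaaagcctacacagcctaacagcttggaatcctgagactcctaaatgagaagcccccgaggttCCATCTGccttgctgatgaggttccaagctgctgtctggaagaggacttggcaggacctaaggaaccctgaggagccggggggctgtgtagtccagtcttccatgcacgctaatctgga
Auts2 intron 5: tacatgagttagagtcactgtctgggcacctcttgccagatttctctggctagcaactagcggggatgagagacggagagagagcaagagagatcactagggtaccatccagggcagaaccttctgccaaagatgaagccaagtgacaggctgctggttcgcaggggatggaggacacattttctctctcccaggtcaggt
Auts2 upstream: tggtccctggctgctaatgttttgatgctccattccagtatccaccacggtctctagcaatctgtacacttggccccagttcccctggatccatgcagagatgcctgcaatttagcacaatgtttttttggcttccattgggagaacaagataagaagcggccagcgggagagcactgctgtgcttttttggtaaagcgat
Rora intron 1: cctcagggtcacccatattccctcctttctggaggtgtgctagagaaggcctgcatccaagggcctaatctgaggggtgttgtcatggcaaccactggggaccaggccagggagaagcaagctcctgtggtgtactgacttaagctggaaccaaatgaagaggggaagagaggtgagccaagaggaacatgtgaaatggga

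The NeuroD E-box lay close to the listed position in 3 of the 6 windows. Its middle letter was 9 bp above the position at Plcb4, 5 bp below it at Atp2b2 and 15 bp below it in Auts2 intron 4. In the 549 listed peaks that held this E-box, the nearest match lay a median of 30 bp away, and within 25 bp in 44.6%. The paper had already reported a motif much like that of NEUROD1 as enriched in its peaks. The windows of Auts2 intron 5, upstream Auts2 and Rora had no match to these letters, though each had 1 or 2 other E-boxes (CANNTG), and the nearest of these lay 31 bp from the upstream Auts2 position. Among all 1932 listed peaks on assembled chromosomes, 28.4% of windows of this length held CAGATGG, and 46.4% did among the 631 peaks in introns. The share was 41.3% among the 1261 listed peaks outside promoters, so it was lower at the listed promoter peaks. In 32851 RefSeq promoter windows trimmed to the same length the share was 3.49%. Introns without a listed peak were not searched, so this last share is no background for peaks in introns. With 6 windows, the share at Purkinje cell genes cannot be set apart from that of all listed or intron peaks.

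**Figure D1:**
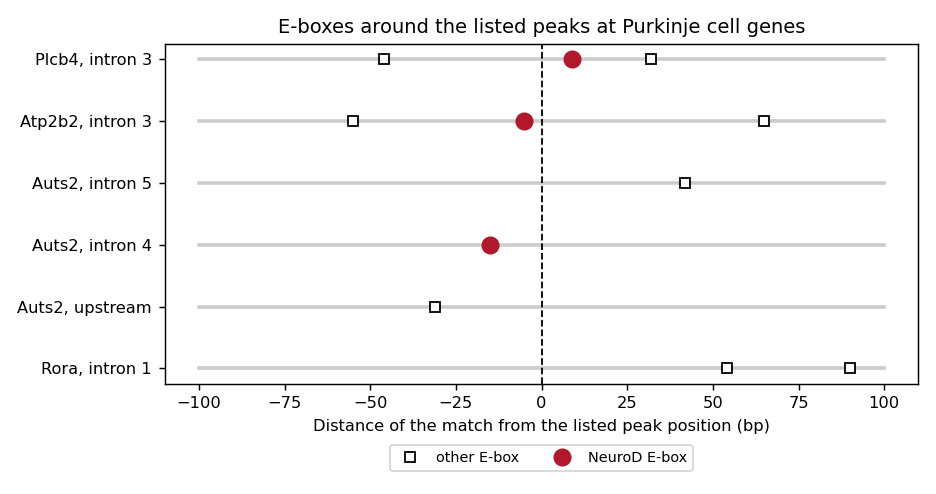
E-boxes within 100 bp of the 6 listed peaks. Each grey line is 1 window, the dashed line is the listed position, the x axis is the distance of a match in bp, filled circles are NeuroD E-boxes and open squares other E-boxes. The filled circles of Plcb4, Atp2b2 and Auts2 intron 4 sit at 9, -5 and -15 bp.

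Other motifs were sparse in these windows. The RREB1-type letters ACCACCC were in none of the 6 windows and in 1.76% of all listed peaks, and the E-box CAGCTG was in none of the 6 and in 11.5% of all. The letters AGGTCA, the core of the site that the receptor encoded by Rora binds, occurred once, 95 bp above the position in Auts2 intron 5, and in 9.42% of all listed peaks. The GC-rich SP/KLF letters GGGCGG occurred once, 15 bp below the Atp2b2 position, and in 22.9% of all listed peaks but 6.66% of those in introns. In promoter windows of the same length the shares were 3.18% for ACCACCC, 10.9% for CAGCTG, 11.5% for AGGTCA and 31.1% for GGGCGG. All were searched on both strands. GC content ran from 49.3% at upstream Auts2 to 61.2% at Atp2b2, around the 55.7% median of listed peaks. Repeat sequence took up 66 bases in Auts2 intron 5, 23 at Rora, 21 at Plcb4 and none in the other 3 windows.

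The listed peak of Plcb4 lay inside the gene, far from its first start. The listed position, chromosome 2 at 135836577, was in intron 3 of 38. It lay 71.7 kb downstream of the RefSeq start given in the row, which belongs to 1 transcript, and 177.0 kb downstream of the start shared by the other 4. This places it 49.9% of the way along the gene span of 355.0 kb (135659547 to 136014593). The nearest start of another protein-coding gene was that of Lamp5, 215.8 kb away. In the newer RefSeq annotation used here the start of a noncoding RNA on the other strand, Gm14210, was closer, at -23.6 kb (a negative distance is upstream of the start). Plcb4 would lose its row under that annotation. GENCODE has a Plcb4 transcript that starts 31.0 kb upstream of the position.

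Atp2b2 had the listed peak nearest to a RefSeq start among the 9 genes. The position, chromosome 6 at 113860768, was in intron 3 of 21 and 30.8 kb downstream of the most internal of the 3 RefSeq starts. The other starts were 73.9 and 181.3 kb upstream of it. Over the 298.3 kb span (113743831 to 114042080, minus strand) it lay 60.8% of the way from the first start. The nearest start of another protein-coding gene, Sec13, was 120.1 kb away. Among the 631 intron peaks, 55.8% were closer to the start in their row than this one, and 79.2% were closer than that of Plcb4.

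Auts2 was named by a peak outside the gene and held others inside it. The row with its name was intergenic, on chromosome 5 at 133010711, 467.5 kb upstream of the single RefSeq start. Only 32 of the 1932 listed peaks were farther from the start in their row. The next protein-coding start, that of Castor2, was 1089 kb away. Inside the gene, which spans 1106 kb (131437333 to 132543220, minus strand), a position at 131873324 was in intron 4 of 19 and 669.9 kb from the start. A position at 131586502 was in intron 5 of 19 and 956.7 kb from the start. GENCODE has further Auts2 starts, the nearest 155.3 kb upstream of the intron 4 position and 30.1 kb upstream of the intron 5 position. The rows of these intron peaks name noncoding RNA genes, 4930563F08Rik (6.9 kb away, on the opposite strand to Auts2) and Gm29681 (at -171.8 kb).

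The numbers of the list point to further peaks at Auts2. Peak numbers follow position along each chromosome, and 3 numbers without a row lie between the intron peaks 2264 and 2268, 286.8 kb apart. If each number stands for a peak of its own, Auts2 held 5 or 6 peaks. The paper reports more peaks than the list has rows, but which numbers they carry cannot be told from the list. Of the 797 protein-coding genes with a listed position inside them, 41 held 2 or more.

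Rora had no row of its own but did hold a listed peak. The position, chromosome 9 at 68820627, was in intron 1 of 10, 166.8 kb downstream of the first start and at -469.2 kb from the internal start. It lay 22.7% of the way along the 734.5 kb span (68653786 to 69388246). Its row names 9530091C08Rik, a noncoding RNA on the same strand, whose start is 55.3 kb away. The nearest start of another protein-coding gene, Ice2, was 577.4 kb away. Such rows are common, since 229 of the 829 listed peaks inside a protein-coding gene (27.6%) name a gene other than the one they lie in.

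**Figure D2:**
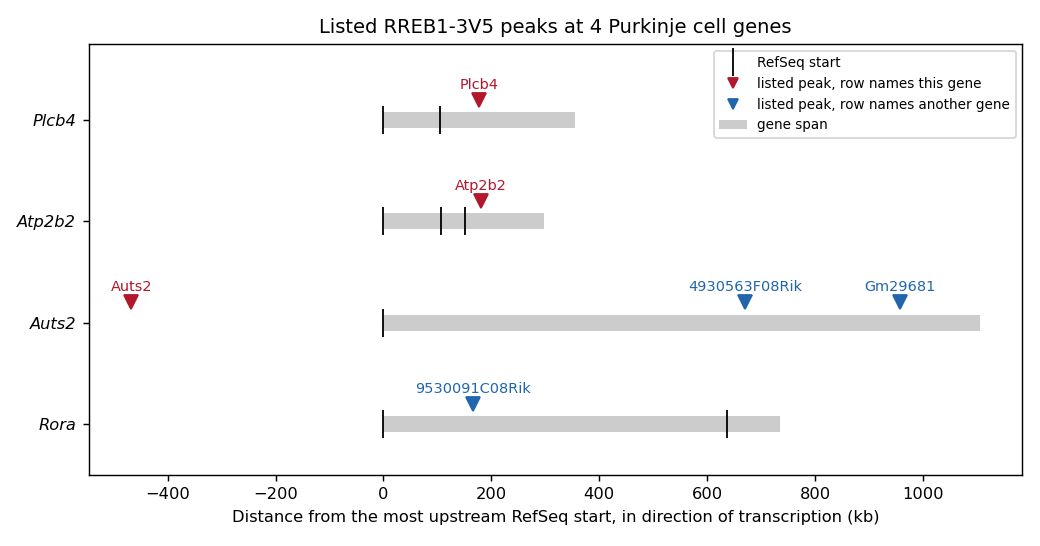
Listed peaks at the 4 genes that hold one. The x axis is the distance in kb from the most upstream RefSeq start, in the direction of transcription; grey bars are gene spans, black ticks RefSeq starts and triangles listed positions, red where the row names the gene and blue where it names another. The Auts2 row lies 467.5 kb upstream of its gene, while the positions inside Auts2 and Rora carry names of noncoding RNA genes.

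The remaining 5 genes, Pcp2, Calb1, Car8, Itpr1 and Pvalb, had neither a row nor a listed position inside them. For Itpr1 and Calb1 the numbering leaves no room for an unlisted peak. Itpr1 (chromosome 6, 108213096 to 108551116) lies in a stretch of 6.42 Mb without a listed position, from Lrrn1 to Atp2b2, whose peaks carry the consecutive numbers 2433 and 2434. This was the 32nd longest of 1912 stretches between neighbouring listed peaks, of which the median was 0.73 Mb. Calb1 (chromosome 4, 15881264 to 15906709) lies in a stretch of 2.59 Mb between Tmem64 and Mmp16, with the numbers 1910 and 1911. Itpr1, which spans 338.0 kb, is close in size to Plcb4.

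Around Car8, Pvalb and Pcp2 a few numbers have no row. Car8 (chromosome 4, 8141493 to 8239041) lies between Nsmaf and Chd7, whose peaks are 2.43 Mb apart with 3 numbers between them. Pvalb (chromosome 15, 78191112 to 78206400) lies between Myh9 and Pick1, 1.41 Mb apart with 1 number between them. Pcp2 (chromosome 8, 3623369 to 3625547) lies before the first listed peak of its chromosome, that of Slc10a2, and 1 number without a row falls between the chromosomes. If the list was cut to 1 row per gene, peaks with such numbers were assigned to genes that have a row. They were then not assigned to Car8, Pvalb or Pcp2. Where such peaks lie cannot be told from the list.

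The distance from a RefSeq start to the nearest listed peak put the 9 genes in an order that runs from 30.8 kb to 1976 kb. Atp2b2 (30.8 kb), Plcb4 (71.7 kb) and Rora (166.8 kb) were closer than the median protein-coding gene, at 302.9 kb. Pvalb (384.0 kb, to the peak of Myh9) and Auts2 (467.5 kb) were farther. Car8 (611.6 kb, Chd7) and Calb1 (615.7 kb, Tmem64) followed. Each of these distances is a single value without replicate error. Itpr1 (768.6 kb, Lrrn1) and Pcp2 (1976 kb, Slc10a2) lay beyond the upper quartile of 731.6 kb. Of the protein-coding genes without a row, 93.2% had a listed peak closer than Pcp2 had.

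**Figure D3:**
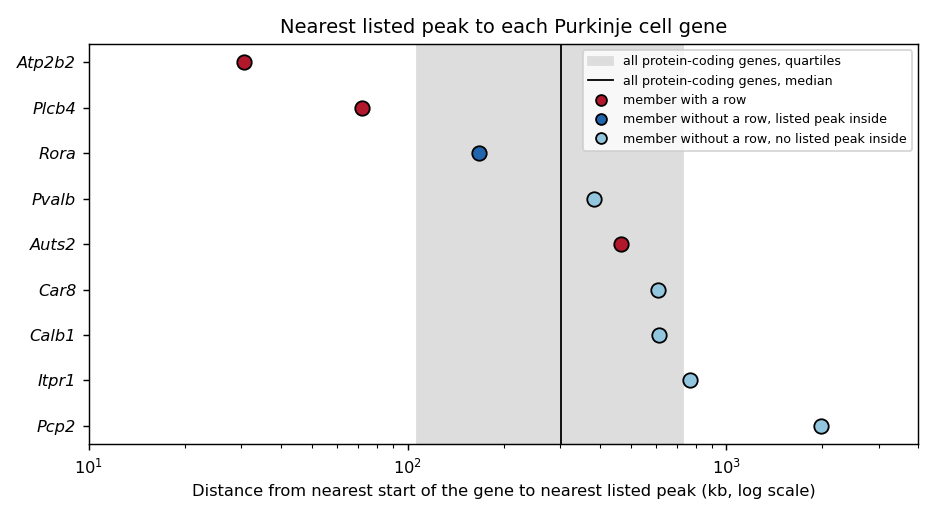
Distance in kb, on a log axis, from the nearest RefSeq start of each of the 9 genes to the nearest listed peak. The band spans the quartiles of all protein-coding genes (107.2 to 731.6 kb) and the line is their median. Atp2b2 at 30.8 kb is nearest and Pcp2 at 1976 kb farthest.

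Pcp2 had no listed peak, and its promoter holds the NeuroD E-box. The promoter of its most upstream start is shown because it is the gene whose promoter drives the transgene. It comes from RefSeq on GRCm38.p6 (the same coordinates as mm10), chr8:3625498-3625797, read on the minus strand from 250 bp before to 50 bp after the start, with CAGATGG in capitals.
Pcp2 promoter: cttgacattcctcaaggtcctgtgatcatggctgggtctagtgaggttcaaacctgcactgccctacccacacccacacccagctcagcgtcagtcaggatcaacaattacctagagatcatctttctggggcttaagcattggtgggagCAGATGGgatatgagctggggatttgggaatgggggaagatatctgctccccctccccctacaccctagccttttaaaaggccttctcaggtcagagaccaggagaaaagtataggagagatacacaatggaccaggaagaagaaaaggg

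The E-box lies 97 bp and the letters AGGTCA 9 bp before the Pcp2 start. CAGATGG is found in 5.30% and AGGTCA in 16.3% of all RefSeq promoter windows of this length (300 bp). Promoter windows were at hand for 5 of the genes, Plcb4, Atp2b2, Pcp2, Rora and Pvalb, and Pcp2 alone had CAGATGG. The transgene carries the Pcp2 promoter and an exon of Pcp2, so reads of these pieces cannot be told apart from reads of the gene itself.

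None of the 9 genes had a listed promoter peak (from 1 kb before to 100 bp after a start). Such a row was found for 3.03% of all protein-coding genes. Of all listed peaks 34.7% were at promoters, a share of peaks and not of genes. The 3 of 9 genes with a row are 33.3% (exact 95% interval 7.49 to 70.1%), against 7.81% of 21000 protein-coding RefSeq genes. By position, 4 of 9 held a listed peak inside, against 3.8% of all. These shares move with gene size, and the 9 genes are large, with a median span of 298.3 kb against 16.7 kb for all genes.

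The background was higher among large genes. Of the 2314 genes that span at least 100 kb, 18.8% had a row and 15.7% held a listed position. Of the Purkinje cell genes of that size (Plcb4, Atp2b2, Auts2, Rora and Itpr1), 3 of 5 had a row and 4 of 5 held a position. None of the 4 smaller ones (Pcp2, Calb1, Car8 and Pvalb) had a row, where 6.46% of smaller genes did. The 9 genes were chosen by name with results known, and no test was made of these differences.

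**Figure D4:**
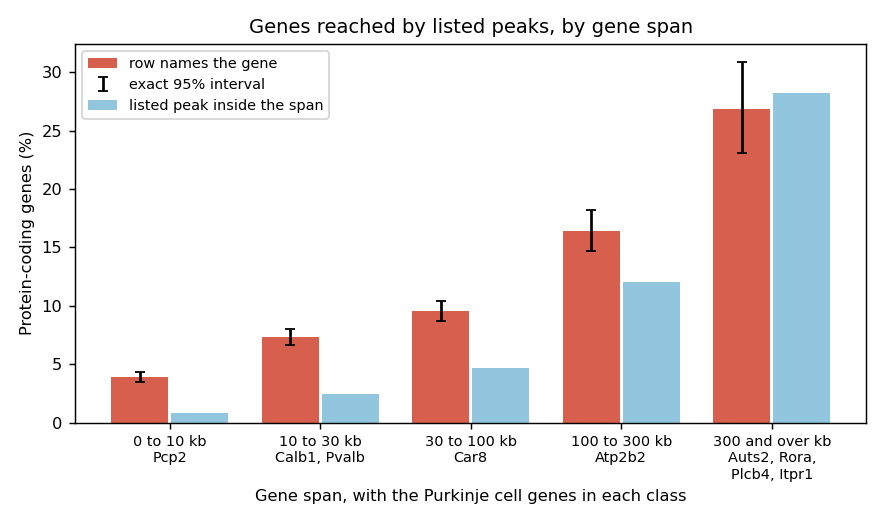
Share of protein-coding genes with a row naming them (red, bars with exact 95% intervals) and with a listed peak inside their span (blue), by gene span in kb. The share with a row is 3.88% below 10 kb and 26.9% from 300 kb, and the Purkinje cell genes of each class are named under it.

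Relatives of the 9 genes were looked up in the same way. Of all protein-coding genes, 7.81% had a row and 3.8% held a listed position. Of those of at least 100 kb, 18.8% had a row and 15.7% held a listed position. Plcb1, which encodes another phospholipase C beta, had a row in intron 2, 134.6 kb from a start, while the small genes Plcb2 and Plcb3 had none. Plcb3 and Plcb4 are known for complementary stripes of Purkinje cells. The pump genes Atp2b1, which spans 111.5 kb, Atp2b3 and Atp2b4 had no row. Itpr2 and Itpr3 each held a listed peak, in rows that name Sspn and Uqcc2, while Itpr1, the main receptor of Purkinje cells, held none. Of 16 carbonic anhydrase genes 1, Car10, had a row (6.25%), near the share of all genes. Calb2, which encodes calretinin, the buffer of granule cells, had a peak 6.9 kb upstream of its start and spans only 25.7 kb. Rorb had one 331.3 kb upstream, and Fbrs, Fbrsl1, Ocm, Scgn and the Gpsm genes had none.

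In the pathway that leads from metabotropic glutamate receptors to the IP3 receptor, 4 of 31 genes had a row (12.9%, exact 95% interval 3.63 to 29.8%), against 7.81% of all protein-coding genes, which lies within that interval. Of its 12 genes of at least 100 kb, 2 had a row, against 18.8% of all genes of that size. They were Plcb4, Plcb1, Ahcyl1 and Cnr1. Ahcyl1, which encodes an inhibitor of IP3 binding to its receptor, had a promoter peak 107 bp upstream of its start. Cnr1, the cannabinoid receptor of parallel fibre terminals, had one at -34.1 kb. Homer2, a scaffold of metabotropic glutamate receptors, had no row but held a listed peak, in a row named for a microRNA gene. The G protein genes Gnaq and Gna11 had no row.

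Genes of calcium stores and transport had 9 of 44 members with a row (20.5%, exact 95% interval 9.80 to 35.3%), against 7.81% of all protein-coding genes. All 9 were among its 28 genes of at least 100 kb, a size at which 18.8% of all genes had a row. Besides Atp2b2 they were the voltage-gated calcium channels Cacna1a, Cacna1c, Cacna1d, Cacna1e and Cacna1i, and the exchangers Slc8a1, Slc8a3 and Slc24a2. Cacna1a, the P/Q-type channel of Purkinje cells, had its row in intron 2, 70.7 kb from a start, and held another listed peak that its row assigns to Ier2. None of the 9 peaks was within 5 kb of a start. The share of all genes with a row that close was not counted. Listed peaks outside promoters lay a median of 33.0 kb from the start in their row. Of calcium-binding proteins, 7 of 32 had a row (21.9%, exact 95% interval 9.28 to 40.0%), 4 of them among the 26 genes under 100 kb, where 6.46% of all genes did. They were Calb2, Calm3, Caln1, Cabp1, Ncald, Rcvrn and Vsnl1. The peak of Calm3, a calmodulin gene, was at the promoter, 193 bp upstream.

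A wider list of 60 Purkinje cell markers, the 9 included, had 9 members with a row (15.0%, exact 95% interval 7.10 to 26.6%), against 7.81% of all protein-coding genes, which lies within that interval. Without the 9 genes it was 6 of 51 (11.8%). In a narrower list of 25 more specific markers it was 2 (8.0%, exact 95% interval 0.984 to 26.0%), Plcb4 and Arhgap26. Outside the 9 genes, the markers of the wider list with a row included Cacna1a, Fgf14, Syt2, Sv2c and Arhgap26. Again none was at a promoter, where 3.03% of all protein-coding genes had a row. The closest was that of the vesicle protein gene Sv2c, 1.3 kb from a start in intron 1. By size, 8 of the 24 genes of at least 100 kb had a row, against 18.8% of all such genes, and 1 of the 36 others, against 6.46%. Cacna2d2 and Rora were among those that held a listed peak without a row. Markers with neither include Foxp2 and Kcnma1, both over 100 kb. Transcription factors of the lineage had 3 of 29 with a row (10.3%), Auts2, Esrrg and Rreb1, the last with an intergenic peak at -154.4 kb. Genes of hereditary ataxia had 6 of 40 (15.0%), among them Cacna1a, Fgf14, Slc1a3, Tbp and Vldlr. The 7.81% of all genes lies within the exact intervals of both lists (2.19 to 27.4% and 5.71 to 29.8%).

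Markers of the other cells of the cerebellum were counted beside these, in lists fixed with earlier results of these data known. No test was made of the differences. Granule cells are the most numerous neurons of the cerebellum. Their markers had a row for 17 of 28 (60.7%, exact 95% interval 40.6 to 78.5%), against 7.81% of all protein-coding genes. Of these markers, 10 were among the 20 genes under 100 kb, a size at which 6.46% of all genes had a row. The 6 nearest to a start were Neurod2, Cbln3, Neurod1, Barhl2, Gabrd and Nfia, and 4 were at promoters. No narrower list of granule cell markers was counted. Markers of molecular layer interneurons, Pvalb among them, had 0 of 16, which allows a share of up to 20.6% by the exact interval. Bergmann glia and astrocytes had 1 of 21 (Slc1a3, exact 95% interval 0.120 to 23.8%). Oligodendrocytes had 2 of 19 (Mbp and Opalin, 1.30 to 33.1%). The 7.81% of all genes lies within the intervals of the interneuron, glia and oligodendrocyte lists. By immunofluorescence the authors saw the transgene in Purkinje cells alone. The part of granule cell chromatin in the peaks at Purkinje cell genes was not tested.

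**Figure D5:**
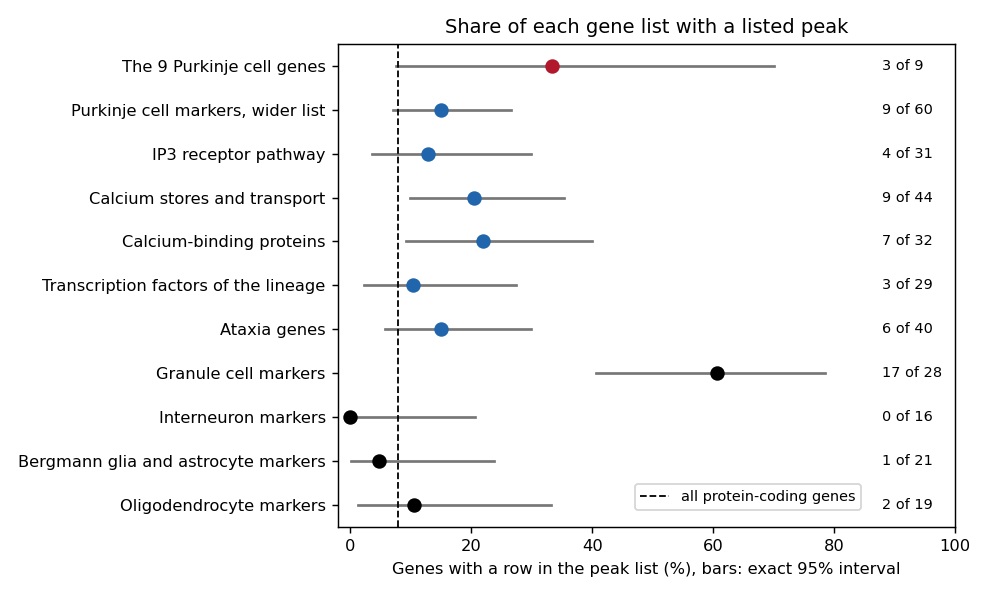
Share of genes with a row in the peak list, in percent, with exact 95% intervals as lines and the counts at the right; the dashed line is the 7.81% of all protein-coding genes. The 9 Purkinje cell genes are in red, related lists in blue and other cell types in black, with granule cell markers at 60.7%.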

How the data were processed

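Binding of RREB1-3V5 was measured by ChIP-seq in 2 ChIP and 2 Input libraries, grouped by their titles. The authors used fastp for trimming, Bowtie2 for alignment to mm10, Sambamba for removing duplicate and multiply mapped reads, MACS3 (q = 0.05) for peak calling and bedtools for merging overlapping peaks, as their methods state. Per the file header, HOMER annotated the merged list. Versions were not given. The deposited table gives peak numbers, positions and distances to starts in bp, and no other measurement.

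Rows were matched to 21000 protein-coding RefSeq genes (GRCm38.p6, at least 1 curated mRNA) by Entrez number. Spans, starts and sequences came from that reference, with pandas 2.3.3 and pysam 0.24.0. Listed peaks were also assigned by position inside a gene span. Shares have Clopper-Pearson 95% intervals (scipy 1.17.1). The motif search and the sign of distances were tested on simulated data. The genes and lists were chosen with earlier results of these data known, and no set test was made. Genes named are the 9, the gene of the nearest listed peak, family members, and list members with a row (the 6 nearest to a start where over 12 had one). Genes named as having no row or only a peak inside were chosen after their values were seen. Some list members are not reported here by name. Alternatives covered assignment, distance limits, annotation and motif windows. A row outside the assembled chromosomes (1) was not used for positions.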

Additional observations from a re-analysis of the deposited data

How the results depend on the processing

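No paired analysis was possible because the deposited list holds no value for a single library, and leaving out a replicate could not be done for the same reason. The count of 3 of 9 genes with a row was 2 with the nearest RefSeq start, without Plcb4, 2 with rows within 100 kb or inside the gene, and 4 by position inside the span, with or without 100 kb on either side, where Rora joins. It was 0 with rows within 5 kb and 0 with promoter rows, which 3.03% of all protein-coding genes had. Within 5 kb, the wider Purkinje cell list fell to 1, calcium transport to 0 and the IP3 receptor pathway to 1. The share of all genes with a row within 5 kb was not counted. Within 100 kb calcium transport fell to 5. The share of all genes with a row was 18.8% for genes of at least 100 kb. Assignment by position in the 3 lists and GENCODE starts were added after seeing the data. By position, the wider Purkinje cell list had 11 of 60 genes, calcium transport 12 of 44 and the IP3 receptor pathway 6 of 31. These were 18.3%, 27.3% and 19.4%, against 3.8% of all protein-coding genes. Among genes of at least 100 kb they were 11 of 24, 11 of 28 and 5 of 12, against 15.7% of all such genes. No test was made of these differences. With GENCODE starts the distance of Plcb4 was 31.0 kb instead of 71.7 kb, since a further transcript is annotated there. The Auts2 intron 5 peak was 30.1 kb from a GENCODE start instead of 956.7 kb from the RefSeq one. The E-box count over the 3 rows was 2 with windows of 50 and 250 bp and with CAGATG. Peak height and depth, which were not in the list, limit every statement on strength of binding.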

Other observations

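The window of the Rora peak holds the letters TGGCAAC, part of the palindromic site of RFX factors, 12 bp below the listed position. RFX factors are known as regulators of neuronal and ciliary genes. These letters were searched after the sequence had been seen. They occur in 5.49% of all listed windows and 6.66% of those in introns, on either strand. The share was 3.08% in promoter windows of the same length, and introns without a listed peak were not searched. None of the other 5 windows at Purkinje cell genes held these letters.

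Of the 797 protein-coding genes that hold a listed position, 174 have no row of their own, as do 95 of the 363 that span at least 100 kb. Besides Rora, these include Gabbr2, a subunit of the GABA-B receptor that is known in Purkinje cell stripes, with a listed peak 282.1 kb from its start in a row that names Tbc1d2. Kcnd3, a potassium channel gene of hereditary ataxia, has one 24.7 kb from a start in a row that names the noncoding RNA Kcnd3os.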
